A study of Rattus norvegicus with 30 samples.

Results

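The insulin-like growth factor 1 (IGF1) axis of the rat testis was followed here through 9 of the 17322 genes in the deposited table: the ligand gene Igf1, the receptor genes Igf1r and Insr, and the genes of 6 IGF-binding proteins, Igfbp2 to Igfbp7. Each was found by its Entrez Gene identifier, and all 9 passed the filter on low values in every comparison. RNA was sequenced from testes of Wistar Han rats at 6 ages in days post-partum (dpp), each library being a different testis: 8.5 dpp, 14.5 dpp, 24.5 dpp, 30.5 dpp, 36.5 dpp and 53.5 dpp. Explants were dissected from testes of 8.5 dpp and sequenced after 6 days in culture (D6, matched in age to 14.5 dpp), 16 days (D16, to 24.5 dpp), 22 days (D22, to 30.5 dpp) or 28 days (D28, to 36.5 dpp). No group carried a transgene or a deletion. Each testis was cut into 6 fragments, which were kept on agarose at 34 °C under 5% CO2 in αMEM with 10% KnockOut serum replacement, retinol and vitamin E. A cultured library pooled 12 explants from at least 3 males, with the necrotic centre removed. Groups had 3 libraries, except 14.5 dpp with 2, because the library labelled as an outlier is listed at 0 for every gene. This left 12 cultured and 17 in vivo libraries.

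IGF1 is a secreted growth factor that binds the receptor tyrosine kinase encoded by Igf1r, and the closely related insulin receptor, encoded by Insr, signals through the same adapters and the PI3K and AKT kinases. In the testis, IGF1 is made locally by somatic cells, and it supports Sertoli cell proliferation and Leydig cell function. The IGF-binding proteins hold IGFs outside the cell, where they prolong their half-life or keep them from the receptor until proteases release them. IGFBP7 binds IGFs weakly compared with the others.

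The values are FPKM, which scale a gene's reads to transcript length and to the mapped reads of the library, so that levels of different genes can be set side by side. Between 12520 and 13563 genes per library were above 0, and library depth relative to the median library, estimated from the ratios of low values, was 0.818 to 1.48. The labelled ages were set against germ cell markers: the summed FPKM of 4 spermatid markers (Tnp1, Prm1, Acrv1 and Spaca1) was 166.4 to 706.2 at 30.5 dpp and 11220 to 16710 at 53.5 dpp, but 2.26 to 6.41 in the cultured libraries. The summed FPKM of 5 Leydig cell markers was 35.29 to 433.3 in vivo and 6.12 to 9.74 in culture, with Cyp17a1 at 0.0965 to 0.596 FPKM as group means against 36.6 to 141 in vivo. In a whole tissue, fewer cells of a type and less RNA per cell cannot be told apart, and each rise or fall below is a change of a gene's part of the tissue RNA.

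Promoter windows are shown for 3 genes, because Igfbp3 and Igfbp4 stood above the 14.5 dpp testis already at D6 and Igfbp5 fell during the culture. The windows run from 250 bases before to 50 bases after the annotated start (RefSeq, build GRCr8), and all 9 genes matched one. They are given from 5′ to 3′ on the strand of the gene, and the capitals mark a TATA box motif (TATAAA or TATATA, searched on both strands).
Igfbp3, chr14:86277895-86278194, minus strand: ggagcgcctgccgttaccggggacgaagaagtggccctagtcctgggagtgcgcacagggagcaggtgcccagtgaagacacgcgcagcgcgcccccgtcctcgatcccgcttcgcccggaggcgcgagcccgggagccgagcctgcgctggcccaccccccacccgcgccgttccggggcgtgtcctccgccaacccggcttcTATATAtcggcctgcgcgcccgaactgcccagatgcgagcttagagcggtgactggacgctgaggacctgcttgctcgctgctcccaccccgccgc
Igfbp4, chr10:84491221-84491520, plus strand: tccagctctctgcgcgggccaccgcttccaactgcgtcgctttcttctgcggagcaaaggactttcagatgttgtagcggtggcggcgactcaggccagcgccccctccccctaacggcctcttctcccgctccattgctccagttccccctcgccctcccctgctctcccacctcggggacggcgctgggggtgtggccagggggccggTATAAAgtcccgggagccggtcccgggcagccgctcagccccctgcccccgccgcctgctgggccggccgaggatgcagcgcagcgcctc
Igfbp5, chr9:81914138-81914437, minus strand: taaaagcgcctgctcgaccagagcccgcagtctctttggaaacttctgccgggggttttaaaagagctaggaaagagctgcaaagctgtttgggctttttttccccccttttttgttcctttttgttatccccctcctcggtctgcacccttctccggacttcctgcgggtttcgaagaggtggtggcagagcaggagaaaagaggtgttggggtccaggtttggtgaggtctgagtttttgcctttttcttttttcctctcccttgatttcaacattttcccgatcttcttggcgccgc

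Among the 9 windows, these TATA letters were found in Igfbp3, from -46 to -41 relative to the start, and in Igfbp4, from -40 to -35, while 17.8% of all 33469 rat promoter windows hold them. TATATA reads the same on both strands, so that the Igfbp3 motif is counted on each. The GC box GGGCGG was found in the windows of Igf1r, Igfbp2 and Igfbp7 and in 33.1% of all windows. The letters ACGTG, the core of a hypoxia response element, were found in the same 3 genes and in 19.3% of all windows. The window of Igfbp3 had 71.7% G and C and that of Igfbp4 71.0%, against 50.7% for Igfbp5 and a median of 51.7% over all windows. A match describes the sequence only.

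On the scale as deposited, all 9 genes fell with age in vivo. A gene was called changed at a limma adjusted p of at most 0.05 together with group medians that differed 2-fold or more. From 8.5 to 53.5 dpp all 9 genes fell, where 50.2% of the 12531 genes tested fell, and the median difference was -3.25 for the 9 genes and -0.74 for all genes on the log2(FPKM + 1) scale. The largest difference was that of Igfbp4, which fell by 5.86 ± 0.25 (SE), and the smallest that of Igf1r, which fell by 0.84 ± 0.13, with limma adjusted p = 1.42e-11 and 1.77e-05. For Igf1r this direction depended on the scaling: its difference was 0.01 after scaling by median-of-ratios size factors and 0.95 after scaling to the Sertoli cell markers Sox9, Wt1 and Cldn11. With the latter Igf1 lost its call (-0.62, limma adjusted p = 0.0545), and the other 7 genes kept theirs. Those scalings moved the median of all genes by 0.83 and 1.79.

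The steps between neighbouring ages differed in how many genes passed. From 8.5 to 14.5 dpp 2 of the 9 fell (Igfbp3 and Igfbp4), where 6.32% of all genes fell. From 14.5 to 24.5 dpp 7 fell, where 21.4% of all genes did, and the exceptions were Igf1r (-0.68 ± 0.14, ratio of medians 0.542) and Igfbp3 (-0.72 ± 0.35, limma adjusted p = 0.0889). From 24.5 to 30.5 dpp 3 fell (Igf1r, Igfbp3 and Igfbp6), against 24.5% of all genes. Between 30.5 and 36.5 dpp none passed both thresholds, where 1.4% of all genes fell, and Igf1 alone had an adjusted p of at most 0.05 (-0.65 ± 0.20, limma adjusted p = 0.0222). From 36.5 to 53.5 dpp 4 fell (Igf1, Igfbp3, Igfbp5 and Igfbp7), against 3.93% of all genes. Leaving out single libraries ended calls of Igfbp3 (14.5 dpp, 5 of 17 fits; 30.5 dpp, 4), Igfbp2 and Igfbp6 (24.5 dpp, 2 each), Igf1r (30.5 dpp, 2), Igfbp5 (53.5 dpp, 3) and Igfbp7 (53.5 dpp, 10).

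The scaling decided at which step the genes fell. The Sertoli marker scaling moved the median of all genes too, by -1.04 from 8.5 to 14.5 dpp and 0.94 from 14.5 to 24.5 dpp. From 24.5 to 30.5 dpp it moved that median by 1.11, and from 36.5 to 53.5 dpp by 0.35. Among its markers, Cldn11 was uneven between the 8.5 dpp libraries. Scaled to the Sertoli cell markers, all 9 differences from 8.5 to 14.5 dpp were negative, from -0.70 for Igf1r to -2.96 for Igfbp4. From 14.5 to 24.5 dpp Igfbp4 kept its call (-1.39), Insr (-0.19) and Igfbp5 (-0.33) lost theirs, and the differences turned positive for Igf1, Igfbp2, Igfbp6 and Igfbp7. From 24.5 to 30.5 dpp they turned positive for Igf1r, Igfbp2, Igfbp3, Igfbp6 and Igfbp7. All 4 calls from 36.5 to 53.5 dpp were lost, at -0.70 for Igf1, -0.92 for Igfbp3, -1.2 for Igfbp5 and -0.28 for Igfbp7 (limma adjusted p = 0.0823 to 0.775).

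**Figure D1:**
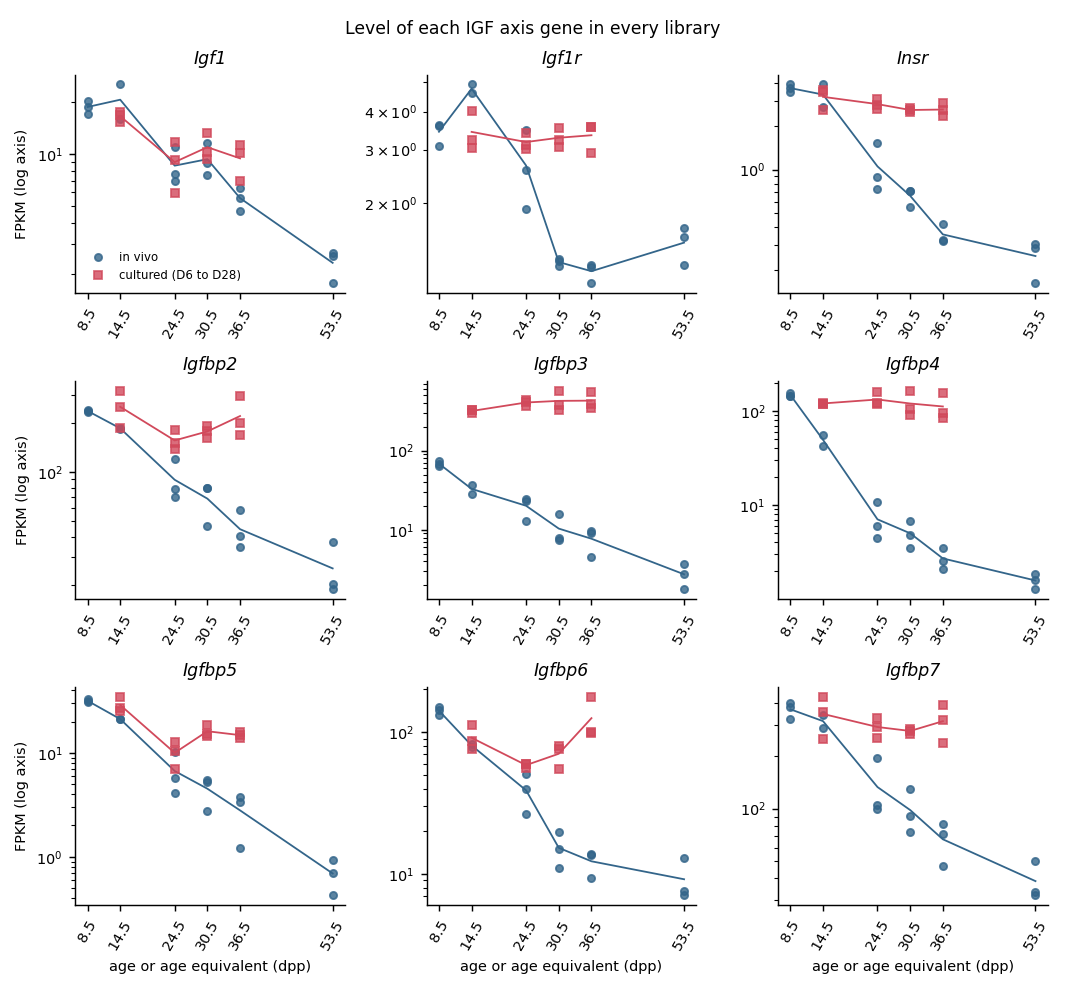
FPKM (log axis) of the 9 genes in each library against age or age equivalent in dpp, with circles for the 17 in vivo libraries, squares for the 12 cultured libraries (placed at the age of the matched testis) and lines through the group means. The 12 cultured libraries of Igfbp3 (298 to 574 FPKM) all lie above its highest in vivo library (73.1 FPKM), and the in vivo lines of all 9 genes end below their 8.5 dpp level.

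The first question was how the cultured tissues compared with testes of the same age. At D6 against 14.5 dpp 2 of the 9 genes were higher (Igfbp3 and Igfbp4) and none lower, where 5.57% of the 11309 genes tested were higher and 2.37% lower. At D16 against 24.5 dpp 4 were higher (Insr, Igfbp3, Igfbp4 and Igfbp7), where 25.3% of all genes were. At D22 against 30.5 dpp and at D28 against 36.5 dpp 8 of the 9 were higher, all but Igf1, where 42.1% and 46.7% of all genes were. The median difference of the 9 genes went from 0.16 at D6 to 0.83, 1.53 and 2.23, beside -0.04, 0.12, 0.51 and 0.64 for all genes tested, while the in vivo levels fell and the cultured levels stayed within 2-fold of their D6 medians for every gene but Igfbp5.

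The Sertoli marker scaling turned age-matched directions for every gene but Igfbp3 and Igfbp4. No age-matched call was reversed by the other scalings, although calls were lost with median-of-ratios factors at D22. The summed FPKM of the 6 Sertoli cell markers was 713.6 to 773 at D22 against 98.03 to 153.3 at 30.5 dpp, and 703.8 to 823.7 at D28 against 71.28 to 94.04 at 36.5 dpp. Scaled to Sox9, Wt1 and Cldn11, which moved the median of all genes by -2.33 at D22 and -2.62 at D28, the difference turned negative for the other 7 genes at D22 (from -0.53 for Insr to -2.41 for Igf1) and for 6 of them at D28, Igfbp6 being at 0.03. At D28 the negative values of Insr (-0.22) and Igfbp5 (-0.65) were not called (limma adjusted p = 0.136 and 0.103). Under that scaling Igfbp3 kept differences of 3.07, 2.44 and 2.5 at the 3 times in turn, and Igfbp4 of 2.87, 1.60 and 1.95.

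**Figure D2:**
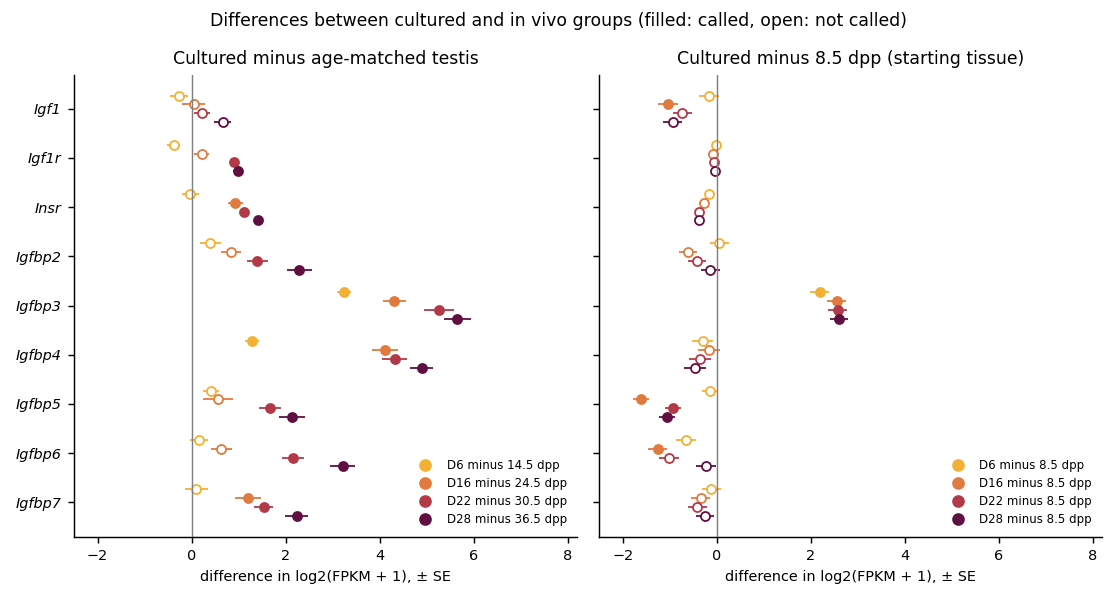
Difference in log2(FPKM + 1) ± SE between each cultured group and the age-matched testis (left) or the 8.5 dpp testis from which explants are taken (right), for the 9 genes, on the scale as deposited. Filled points passed the limma test and the 2-fold ratio and open points did not: Igfbp3 is filled in all 8 comparisons, with 3.24 to 5.65 on the left and 2.19 to 2.60 on the right, whereas on the right Igf1r lies between -0.08 and -0.01.

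The second question was how the cultured tissues compared with the prepubertal testis of 14.5 dpp. D16, D22 and D28 share the same 2 control libraries, so their values are given side by side. In at least 1 of the 3 comparisons 4 of the 9 genes were called, against 16.2% of the 11517 genes tested. At D16 2 were higher and 2 lower (all genes, 6.56% and 5.35%), at D22 2 higher and 1 lower (7.34% and 5.51%) and at D28 1 higher and 1 lower (7.64% and 6%). Igfbp3 was higher at each time, Igfbp4 at D16 and D22, Igf1 was lower at each time and Igfbp5 at D16. The count went from 4 to 2 without either of the 14.5 dpp libraries, and to 2 without the filter on low values.

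The third question was how the tissue changed from its state at dissection. Against the 8.5 dpp testis 4 of the 9 genes were called at 1 or more culture times, where 29% of 11539 genes were. Igfbp3 was higher at all 4 times, Igfbp5 was lower at D16, D22 and D28, and Igf1 and Igfbp6 were lower at D16. Within the culture, from D6 to D28, 1 of the 9 genes was called (Igfbp5), against 6.71% of 11358 genes. The change over the same 22 days differed between culture and testis: (D28 minus D6) minus (36.5 minus 14.5 dpp) was positive and called for 8 of the 9 genes, all but Igf1, where 38.4% of 12482 genes were, and the median was 1.88 for the 9 genes and 0.63 for all genes. Scaled to the Sertoli cell markers, 8 of these 9 interactions turned negative, and that of Igfbp4 lost its call at 0.34 (limma adjusted p = 0.436). The negative values of Insr (-0.41) and Igfbp6 (-0.49) were not called either.

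Igf1, the ligand, fell with age in the testis and was lower at D16 to D28 than at 14.5 dpp. Its FPKM was 20.4, 17 and 18.8 at 8.5 dpp, 16.0 and 25.4 at 14.5 dpp, 11, 7.69 and 7 at 24.5 dpp, 8.89, 7.55 and 11.55 at 30.5 dpp, 6.37, 5.56 and 4.69 at 36.5 dpp, and 2.56, 1.78 and 2.65 at 53.5 dpp. In culture it was 17.6, 16.9 and 15.2 at D6, 11.8, 9.24 and 5.92 at D16, 9.41, 13.2 and 10.2 at D22, then 6.99, 11.2 and 10.1 at D28. The D6 libraries stood apart from every later cultured library, and the later cultured libraries overlapped those of 24.5 and 30.5 dpp.

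On the scale as deposited, Igf1 had the smallest difference of the 9 genes from the age-matched testis at D16, D22 and D28. It differed from 24.5 dpp by 0.04 ± 0.25 at D16 (95% interval -0.57 to 0.65) and from 30.5 dpp by 0.22 ± 0.18 at D22 (-0.21 to 0.64). At D28 it was 0.66 ± 0.18 above 36.5 dpp (limma adjusted p = 0.0111), with a ratio of medians of 1.81, under the 2-fold limit. Under the Sertoli marker scaling these differences were -1.02, -2.41 and -2.25, the most negative of the 9 genes at each time. That scaling moved the median of all genes by -0.97, -2.33 and -2.62. Against 14.5 dpp, on the scale as deposited, Igf1 differed by -1.13 ± 0.29 at D16, by -0.84 ± 0.29 at D22 and by -1.04 ± 0.29 at D28 (limma F test over the 3 comparisons, adjusted p = 0.0444). That call stands close to its threshold: it was lost in 7 or 8 of the 11 fits that left out 1 library, including both that left out a 14.5 dpp library. It was also lost with a pseudocount of 0.1 (limma F adjusted p = 0.0615) and with the replicate number as a block (limma F adjusted p = 0.0651). Against 8.5 dpp Igf1 fell by 1.03 ± 0.21 at D16, and its differences at D22 and D28 were -0.73 and -0.94 with ratios of 0.543 and 0.535 (limma F adjusted p = 0.0018).

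The receptor genes fell in the testis and, on the scale as deposited, were not called against the starting tissue at any culture time. Igf1r, which encodes the IGF1 receptor, was at 3.08, 3.60 and 3.62 FPKM at 8.5 dpp, 4.6 and 4.91 at 14.5 dpp, 2.58, 1.91 and 3.48 at 24.5 dpp, and between 1.09 and 1.65 in all 9 later testes. Its 12 cultured libraries lay between 2.92 and 4.03. The 14.5 dpp libraries were the highest of all, and every cultured library stood above every testis of 30.5 dpp and older. Against 8.5 dpp the differences were -0.01 to -0.08 with an SE of 0.10, and their 95% intervals together ran from -0.30 to 0.21 (limma F adjusted p = 0.909). Under the Sertoli marker scaling they were -0.77 to -1.05 and called at every culture time (limma F adjusted p = 0.000963). That scaling moved the median of all genes by -0.86 to -1.17. At D22 and D28 Igf1r was higher than in the age-matched testis by 0.91 ± 0.09 and 0.98 ± 0.11 (limma adjusted p = 5.13e-05 and 6.57e-05), and under the Sertoli marker scaling these were -1.05 and -1.26.

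Insr, the insulin receptor gene, was at 3.44, 3.72 and 3.91 FPKM at 8.5 dpp and 3.91 and 2.74 at 14.5 dpp. It was 0.728, 0.894 and 1.54 at 24.5 dpp, 0.713, 0.546 and 0.714 at 30.5 dpp, 0.317, 0.421 and 0.326 at 36.5 dpp, and 0.287, 0.163 and 0.302 at 53.5 dpp. All 12 cultured libraries (2.37 to 3.57) stood above all 12 testes of 24.5 dpp and older. Values under 1 FPKM change little on the log2(FPKM + 1) scale, so the difference of 1.42 ± 0.10 at D28 (limma adjusted p = 6.94e-06) went with a ratio of medians of 7.98. In that comparison Insr passed the filter of 0.5 FPKM through D28 alone. Against 8.5 dpp Insr had differences of -0.16 to -0.38, all with ratios nearer to 1 than 2-fold (limma F adjusted p = 0.0133). Under the Sertoli marker scaling they were -0.91 to -1.31 and called at every culture time (limma F adjusted p = 0.000103).

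The 2 receptor genes did not fall alike in the testis. The ratio of Igf1r to Insr within a library, which needs no scaling between libraries, was 0.929 ± 0.0358 (SD, n = 3) at 8.5 dpp, 3.41 ± 0.511 at 36.5 dpp and 6.53 ± 3.14 at 53.5 dpp. In culture it was 1.08 ± 0.123 at D6 and 1.29 ± 0.251 at D28. The lowest ratio from 24.5 dpp onwards was 1.75, above the highest cultured ratio of 1.5.

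Igfbp3 encodes the main IGF carrier of the circulation, and on the scale as deposited it had the largest difference of the 9 genes from the 8.5 dpp, 14.5 dpp and age-matched testis at each culture time. In vivo it was 68.2, 73.1 and 64.6 FPKM at 8.5 dpp, 37.1 and 28.7 at 14.5 dpp, 24.2, 12.8 and 23.4 at 24.5 dpp, 7.92, 7.54 and 15.7 at 30.5 dpp, 9.07, 9.6 and 4.51 at 36.5 dpp, and 2.79, 1.79 and 3.66 at 53.5 dpp. In culture it was 326, 328 and 298 at D6, 440.0, 370.0 and 408 at D16, 574, 381 and 322 at D22, then 554, 389.9 and 342 at D28. No cultured library overlapped any in vivo library, and this held for no other gene of the 9. The share of all genes with such a gap was not counted.

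The rise of Igfbp3 was present after 6 days. Relative to 8.5 dpp it was 2.19 ± 0.20 at D6, 2.55 ± 0.20 at D16, 2.57 ± 0.20 at D22, then 2.60 ± 0.20 at D28 (limma F adjusted p = 4.43e-07), with ratios of medians of 4.78 to 5.99. Between D6 and D28 the difference was 0.40 ± 0.21 (95% interval -0.06 to 0.87, limma F over the culture days, adjusted p = 0.37). Against the age-matched testis it was 3.24 ± 0.15 at D6 and 5.65 ± 0.29 at D28 (limma adjusted p = 0.000455 and 1.28e-06), or 9.9-fold and 43.0-fold by medians. Under the Sertoli marker scaling the difference from 8.5 dpp kept its call at D16 (1.23) and missed the 2-fold ratio at D6 (1.14), D22 (1.11) and D28 (1.16).

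Igfbp4 encodes a binding protein that inhibits IGF action until it is cleaved. Its FPKM was 155, 145 and 143 at 8.5 dpp, 55.9 and 42.8 at 14.5 dpp, 10.8, 5.94 and 4.45 at 24.5 dpp, 4.81, 3.47 and 6.75 at 30.5 dpp, 3.47, 2.57 and 2.08 at 36.5 dpp, and 1.58, 1.28 and 1.87 at 53.5 dpp. In culture it was 119.8, 118 and 123 at D6, 158, 119 and 120.0 at D16, 165, 104 and 91.3 at D22, then 156, 94.6 and 84.3 at D28. Every cultured library stood above every testis of 14.5 dpp and older, and the cultured libraries overlapped those of 8.5 dpp at D16, D22 and D28.

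On the scale as deposited, Igfbp4 was not called against its starting level at any culture time, while it fell in the testis. Relative to 8.5 dpp the differences were -0.17 to -0.46 with an SE of 0.23 (limma F adjusted p = 0.403), and at D28 the 95% interval was -0.95 to 0.04. Under the Sertoli marker scaling they were lower and called at all 4 times, from -1.34 at D6 to -1.87 at D28 (limma F adjusted p = 0.00017). Against 14.5 dpp they were 1.28 ± 0.15 at D6 (limma adjusted p = 0.00594), 1.41 ± 0.30 at D16, 1.23 ± 0.30 at D22, then 1.12 ± 0.30 at D28 (limma F adjusted p = 0.0212), the last with a ratio of 1.92. Against the age-matched testis they were 4.11 ± 0.28 at D16, 4.32 ± 0.27 at D22, then 4.89 ± 0.25 at D28. The calls at D16 and D22 against 14.5 dpp were lost without either 14.5 dpp library, and that at D22 also without its replicate 1.

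Igfbp5, the gene of a binding protein that attaches to extracellular matrix, was the one gene of the 9 called as changing during the culture. It was at 32.7, 30.7 and 31.7 FPKM at 8.5 dpp, 26.9, 25.0 and 34.7 at D6, 12.6, 10.5 and 6.93 at D16, 15.2, 14.6 and 18.7 at D22, then 15.8, 14.9 and 13.8 at D28. The D6 libraries overlapped those of 8.5 dpp, and all later cultured libraries lay below both. Relative to D6 the differences were -1.46 ± 0.19 at D16, -0.79 ± 0.19 at D22, then -0.91 ± 0.19 at D28 (limma F adjusted p = 0.00231). Relative to 8.5 dpp it fell by 1.61 ± 0.17, 0.94 ± 0.17 and 1.05 ± 0.17 (limma F adjusted p = 1.58e-05).

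In vivo the FPKM of Igfbp5 was 21.2 and 21.1 at 14.5 dpp, 3.80, 3.38 and 1.21 at 36.5 dpp, and 0.704, 0.428 and 0.941 at 53.5 dpp. Against 24.5 dpp the D16 tissue differed by 0.56 ± 0.32 (limma adjusted p = 0.154), and against 36.5 dpp the D28 tissue was higher by 2.13 ± 0.28 (limma adjusted p = 0.000215). Under the Sertoli marker scaling the difference was -0.91 at D22 against 30.5 dpp (limma adjusted p = 0.00682) and -0.65 at D28 against 36.5 dpp. The summed FPKM of 5 peritubular myoid markers (Acta2, Myh11, Cnn1, Des and Tagln) was 684.5 to 731 at 8.5 dpp, 195.7 to 380.4 at D6 and 81.83 to 149.4 at D16. The part of these cells in the Igfbp5 result was not tested.

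Igfbp6, whose product prefers IGF2 over IGF1, was at 142, 132 and 151 FPKM at 8.5 dpp, 78.6 and 82.4 at 14.5 dpp, 39.6, 26.3 and 50.6 at 24.5 dpp, 15.1, 11 and 19.7 at 30.5 dpp, 13.9, 13.5 and 9.35 at 36.5 dpp, and 7.57, 7.08 and 12.8 at 53.5 dpp. In culture it was 86.1, 75.5 and 112 at D6, 59.9, 59.7 and 55.8 at D16, 76.2, 55.0 and 79.9 at D22, then 178, 101 and 97.9 at D28. Only D28 reached the 8.5 dpp range, with 1 library above it and 2 below. Igfbp6 fell by 1.26 ± 0.21 at D16 relative to 8.5 dpp, and its difference at D28 was -0.23 ± 0.21 (limma F over the 4 times, adjusted p = 0.00084). Within the culture the F test passed (adjusted p = 0.0306) with a largest ratio of medians under 2. Against the age-matched testis it was higher by 2.15 ± 0.23 at D22 and 3.21 ± 0.26 at D28 (limma adjusted p = 8.55e-05 and 1.34e-05), and under the Sertoli marker scaling these were -0.67 and 0.03.

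Igfbp2 and Igfbp7 were the most abundant of the 6 binding protein genes in the testis, and they moved together. IGFBP2 is a broadly expressed carrier of both IGFs. Igfbp2 was at 237, 242 and 235 FPKM at 8.5 dpp, 187 and 185 at 14.5 dpp and 20.6, 19.0 and 36.9 at 53.5 dpp, and its cultured libraries ran from 138 to 318. Igfbp7 was at 380.3, 401 and 327 FPKM at 8.5 dpp, 343 and 289 at 14.5 dpp and 33.4, 32.1 and 50.2 at 53.5 dpp, with cultured libraries from 238 to 436. For both, the cultured range overlapped those of 8.5 and 14.5 dpp and lay above every testis of 24.5 dpp and older.

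On the scale as deposited, neither was called against 8.5 or 14.5 dpp at any culture time. The limma F test against 8.5 dpp gave adjusted p = 0.0437 for Igfbp2, with differences of 0.05, -0.61, -0.42 and -0.14, and 0.34 for Igfbp7. Under the Sertoli marker scaling both were called lower than at 8.5 dpp at every culture time. These differences were -1.0 to -1.92 for Igfbp2 and -1.17 to -1.87 for Igfbp7 (limma F adjusted p = 0.000103 and 8.97e-05). At D28 against 36.5 dpp Igfbp2 was higher by 2.29 ± 0.26 and Igfbp7 by 2.23 ± 0.25 (limma adjusted p = 8.68e-05 and 8.57e-05), and under the Sertoli marker scaling both were lower, at -0.97 and -1.04. Their ratio within a library was 0.513 to 0.872 over all 29 libraries, while each gene alone ranged over more than 10-fold.

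The make-up of the binding protein RNA was compared as shares of the summed FPKM of the 6 genes, which no scaling between libraries can change. The sum fell from 997.5 ± 39.3 FPKM (SD, n = 3) at 8.5 dpp to 78.2 ± 24.5 at 53.5 dpp and was 1056 to 1218 as group means in culture. In vivo Igfbp7 held 37.0% to 49.8% as group means and Igfbp2 23.9% to 34.1%, while Igfbp3 held 3.51% to 6.9%. In culture Igfbp3 held 27.9% ± 5.43 at D6, 38.5% ± 2.59 at D16, 38.6% ± 6.17 at D22, then 35.3% ± 3.18 at D28. Its lowest cultured share was 22.5% and its highest in vivo share 8.8%, so the libraries did not overlap.

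Igfbp4 also set culture and testis apart by its share. It held 14.8% ± 0.584 at 8.5 dpp, 7.16% ± 0.815 (n = 2) at 14.5 dpp, and 1.99% to 2.46% from 24.5 dpp on, but 9.06% to 12.5% as group means in culture. Against the age-matched testis, the shares of Igfbp2, Igfbp3, Igfbp4 and Igfbp7 did not overlap at any of the 4 times. With 3 libraries a group the smallest two-sided p of an exact permutation test is 0.1 (0.2 against the 2 libraries of 14.5 dpp), and each of these comparisons gave it. Igfbp6 overlapped at D22 and D28 (exact permutation p = 0.4 and 0.3), with shares of 6.52% and 10.1% in culture against 7.56% and 9.07% in vivo. A larger share of 1 gene lowers those of the others. With Igfbp3 left out of the sum, Igfbp2 held 29.9% at D6 against 28.5% at 14.5 dpp, with overlapping libraries. At D16, D22 and D28 it was lower without overlap, at 24.1%, 26.9% and 28% against 32.8%, 35.8% and 34.5% in the matched testes. Igfbp7 in that sum held 40.3% to 45% in culture, beside 39.7% at 8.5 dpp and 47.6% to 51.7% at the later ages.

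**Figure D3:**
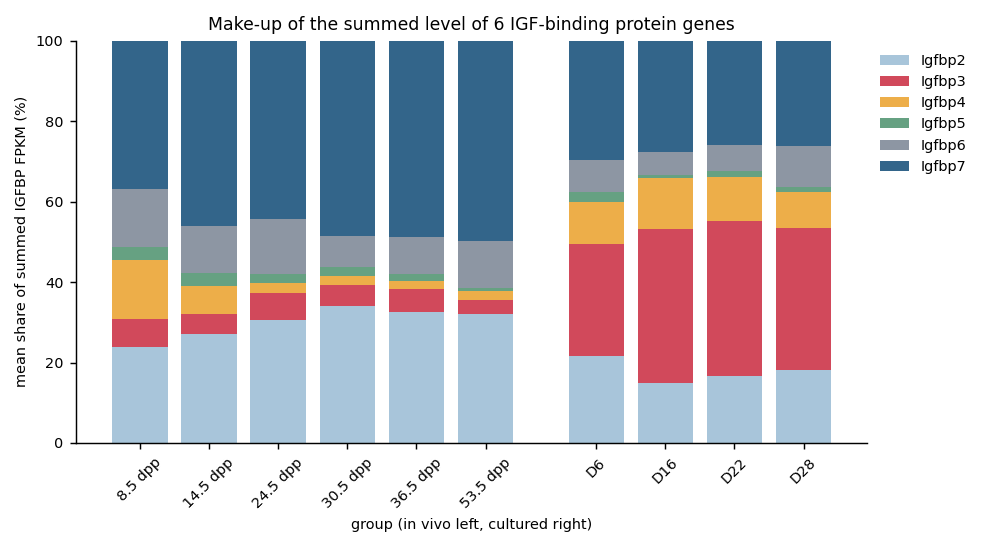
Mean share (%) of each of the 6 genes in the summed IGFBP FPKM of a library, as stacked bars from 0 to 100 for the 6 in vivo ages (left) and the 4 culture times (right). The Igfbp3 segment is 3.51% to 6.9% in vivo and 27.9% to 38.6% in culture, and the Igfbp4 segment is about 2% from 24.5 dpp on and 9.06% to 12.5% in culture.

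Ligand and carrier moved apart in culture. The ratio of Igfbp3 to Igf1 FPKM within a library was 3.69 ± 0.524 (SD, n = 3) at 8.5 dpp and 1.08 to 2.41 as group means from 14.5 dpp on, against 19.2 ± 0.554 at D6 and 48.8 ± 17.5 at D16. The second ligand gene, Igf2, which is imprinted, went from 20.5, 20.3 and 19.3 FPKM at 8.5 dpp to 7.48 and 8.53 at 14.5 dpp, and to 46.0, 40.2 and 46.7 at D6 and 95.7, 45.3 and 56.3 at D28. The ratio of Igf2 to Igf1 was 1.07 ± 0.104 at 8.5 dpp, and it was 2.69 ± 0.347 at D6 and 10.6 ± 3.37 at D16. The lowest cultured ratio was 2.38 and the highest in vivo ratio 1.79.

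**Figure D4:**
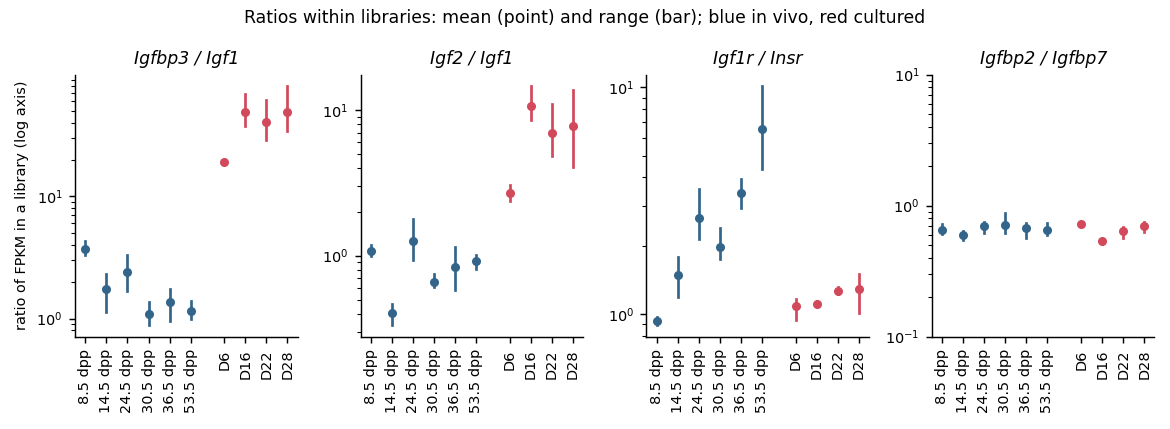
Ratios of FPKM within libraries (log axes) for Igfbp3 to Igf1, Igf2 to Igf1, Igf1r to Insr and Igfbp2 to Igfbp7, with points for group means and bars from the lowest to the highest library, blue for in vivo and red for culture. Igfbp3 to Igf1 is 18.5 to 79.2 in cultured libraries and 0.891 to 4.29 in vivo, Igf1r to Insr reaches 10.1 in vivo and 1.5 in culture, and Igfbp2 to Igfbp7 stays between 0.513 and 0.872.

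Markers of the cells that could carry these genes moved too. The summed FPKM of 5 interstitial fibroblast markers (Pdgfra, Dcn, Col1a1, Nr2f2 and Tcf21) was 702.1 to 712.3 at 8.5 dpp, 332.3 to 353.6 at 14.5 dpp and 11.51 to 21.67 at 53.5 dpp, and 374.8 to 564.4 in culture. That of 5 endothelial markers (Pecam1, Cdh5, Vwf, Kdr and Tek) was 43.96 to 46.93 at 8.5 dpp and 25.06 to 31.45 at 14.5 dpp, and 47.29 to 84.72 in culture. That of 5 macrophage markers was 12.73 to 24.42 in vivo and 16.23 to 25.25 in culture, and among them Cd163 was listed at 0 in every cultured group. The part of these cells in the levels was not tested.

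Set against the markers of the same library, the genes of the axis separated. Relative to the fibroblast markers, Igfbp3 was above its 8.5 dpp level by 2.77 ± 0.32 (SD, log2) at D6 and 3.47 ± 0.27 at D28, and by 0.78 ± 0.15 to 1.25 ± 0.30 in the testes of 24.5 dpp and older. Relative to the same markers Igfbp4 was 0.26 ± 0.21 to 0.71 ± 0.12 above its 8.5 dpp level in culture, and at -1.09 ± 0.18 to -1.48 ± 0.16 from it in the testes of 24.5 dpp and older. Relative to the Sertoli markers it was below its 8.5 dpp level in culture too, at -1.36 to -1.90, and at -3.49 to -4.56 in those testes. Igf1 and Igfbp7 went the other way from Igfbp4 in vivo. Relative to the fibroblast markers they rose to 2.45 ± 0.25 and 2.19 ± 0.14 at 53.5 dpp, and they lay between -0.24 and 0.60 in culture. Igf1r (4.26), Igfbp2 (2.19), Insr (1.55) and Igfbp6 (1.47) were also above their 8.5 dpp level at 53.5 dpp, and Igfbp5 was at -0.11. Relative to the Sertoli markers Igf1 and Igfbp7 were at -0.66 and -0.92 at 53.5 dpp, and at -1.24 to -2.45 and -1.18 to -1.88 in culture. These are descriptions without a test, and 1 of the Sertoli markers, Cldn11, was uneven at 8.5 dpp, at 129.8 FPKM in 1 library and 33.9 and 25.0 in the others.

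**Figure D5:**
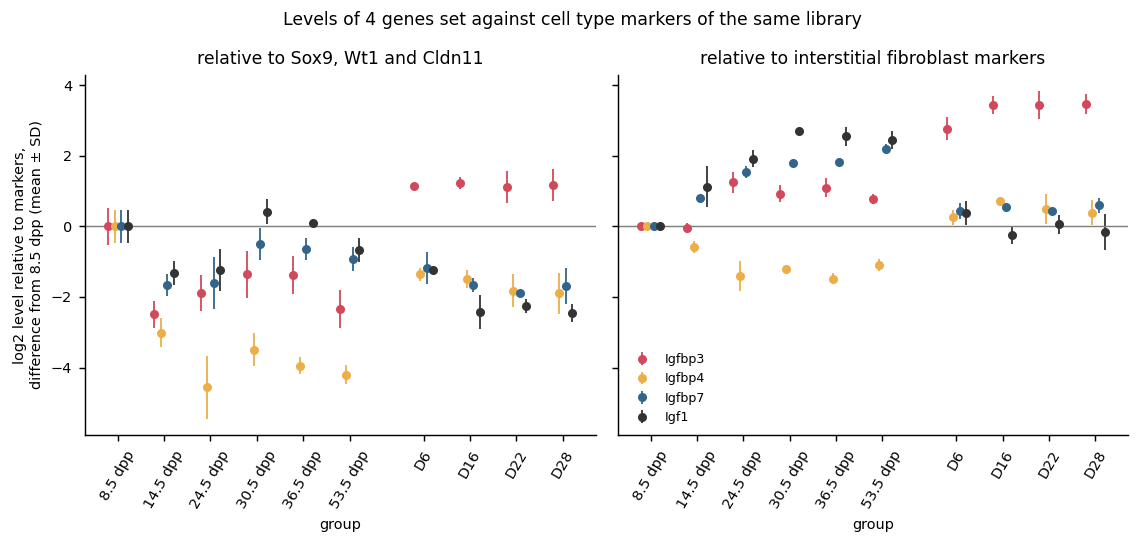
Log2 level of Igfbp3, Igfbp4, Igfbp7 and Igf1 minus the mean log2 level of the Sertoli markers Sox9, Wt1 and Cldn11 (left) or of 5 interstitial fibroblast markers (right) in the same library, as the difference from the 8.5 dpp mean, with points for group means and bars for SD. Relative to both marker sets Igfbp3 lies above 0 in all 4 cultured groups (1.12 to 1.24 left, 2.77 to 3.47 right), and Igfbp4 in culture lies below 0 on the left (-1.36 to -1.90) and above 0 on the right (0.26 to 0.71).

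The other genes of the pathway were taken from a list of 33, of which 31 are in the file and 25 to 28 passed the filter in a comparison. From 8.5 to 53.5 dpp 24 of 28 fell and 4 rose, where 50.2% of all genes fell and 23.7% rose, and 1 that rose was Pdpk1, the kinase that activates AKT (2.74 ± 0.14). At D28 against 36.5 dpp 21 of 27 were higher and 3 lower, where 46.7% and 23.6% of all genes were, on the scale as deposited. Among the higher, Irs1, Stc1, Stc2, Stat5a, Stat5b, Igf2bp2 and Igfbpl1 reached the filter of 0.5 FPKM at D28 alone. Among the lower, Igfals reached it at 36.5 dpp alone. Against 14.5 dpp 1 of 25 was higher at D6 (Igf2), and 3 were higher and 3 lower at D28, beside 7.64% and 6% of all genes. The higher ones at D28 were Igf2 (2.82 ± 0.33), Akt2 (0.94 ± 0.24), an AKT kinase, and Htra1 (1.62 ± 0.12), a secreted protease that can cut IGF-binding proteins. The lower ones were Ghr, the growth hormone receptor (-1.14 ± 0.20), Grb10, an adapter that restrains insulin and IGF1 receptors (-1.24 ± 0.13), and Igf2bp1, a binder of Igf2 mRNA (-0.87 ± 0.13). Limma F adjusted p ran from 6.86e-05 to 0.0131 over these 6 genes.

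Against the starting tissue, the pathway genes called at D28 were 4 higher and 4 lower of 26, near the 13.2% and 10.3% of all genes. Htra1 rose from 14.6, 12.3 and 12.7 FPKM at 8.5 dpp to 51.3, 48.7 and 49.7 at D28 without overlap (1.85 ± 0.08, limma F adjusted p = 3.01e-09). Ghr, through which growth hormone induces Igf1 in many tissues, fell from 10.4, 10.2 and 11 FPKM to 3.11, 2.83 and 2.48 (-1.60 ± 0.16, limma F adjusted p = 1.01e-05). Pappa, a protease that cleaves IGFBP4, went from 0.767 ± 0.13 FPKM to 0.0575 ± 0.046, both low values (-0.74 ± 0.08, limma F adjusted p = 1.16e-05). Ins1 was listed at 0 in every library.

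Likeness of pattern was described by Pearson's r of log2(FPKM + 1) over the 29 libraries and 12762 genes, without a test, since the libraries share ages and depths. Igfbp2 and Igfbp7 were each other's most similar gene (r = 0.988). Igfbp4 was most like Cdh5, the endothelial cadherin gene (r = 0.994), followed by Mmp2 and Gask1b. Igfbp3 was most like C1s (r = 0.986), a complement protease gene, then Cyth4 and Cd93. Igf1 was most like the elastin gene Eln (r = 0.956), with Mylk and Cald1 next, Insr was most like Fmo5 (r = 0.987), and Igfbp6 was most like Tmem11 (r = 0.985). For Igf1r the first was Ifrd2 (r = 0.96) and for Igfbp5 it was Rprml (r = 0.971). Among the 9 genes themselves r ran from 0.551, for Igf1 with Igfbp3, to that of Igfbp2 with Igfbp7.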

How the data were processed

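Polyadenylated RNA was read as stranded single reads of 50 bp. Per the labels and the study's methods, the authors aligned them with STAR 2.5.2a to the rat genome rn6 and quantified RefSeq genes with StringTie 1.3.3. The deposited values are FPKM, with 1 column per library and no pooled columns. Of 30 libraries 29 were used, since 1 of 14.5 dpp is listed at 0 for all 17322 genes. Read counts were not used here, so absolute depth is unknown and no count test was run. Of the 17322 identifiers, 17172 matched a RefSeq gene symbol.

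Values were tested as log2(FPKM + 1) with limma 3.58.1 (R 4.3.3) on genes whose median reached 0.5 FPKM in 1 or more of the groups compared, with Benjamini-Hochberg adjustment over all genes tested. The pseudocount understates the differences of low genes, and a gene could pass the filter through its higher group alone. Calls needed an adjusted p no higher than 0.05 and group medians that differed 2-fold or more (for the interaction, a difference of at least 1 on the log2 scale). The test of the 3 later culture times against 14.5 dpp, of the 4 culture times against 8.5 dpp and of the culture days was an F test, and the others were tests of a single contrast. The limma calls were also run on simulated data with known shifts for some of the comparisons, and no result here rests on that run. Shares were compared by two-sided exact permutation tests. Python 3.11.15 was used for ratios, sequences and figures.

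All 9 genes are reported in every comparison, the other pathway genes by counts. The genes and lists were chosen with earlier results of these data known. Cultured libraries with different numbers may share animals, since the labels do not say which males were pooled, and p-values measure the spread between these libraries. Alternatives were another pseudocount, no filter, 3 scalings, calls on adjusted p alone, other variance settings, 1 fit of all 10 groups, a replicate block, a test of each contrast and leaving out each library.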

Additional observations from a re-analysis of the deposited data

Results flagged for a closer look

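For each of the 9 genes, the change over 22 days differed between culture and testis by a test of the difference itself. By adjusted p alone, in either direction, 9544 of the 12482 genes tested did so. The quantity is the change from D6 to D28 minus the change from 14.5 to 36.5 dpp, on the log2(FPKM + 1) scale, with limma adjusted p-values over 12482 genes. It was 3.61 ± 0.33 (SE) for Igfbp4 (limma adjusted p = 4.09e-06), 3.06 ± 0.37 for Igfbp6 (2.79e-05) and 2.41 ± 0.38 for Igfbp3 (0.000211). It was 2.13 ± 0.39 for Igfbp7 (0.000614), 1.88 ± 0.39 for Igfbp2 (0.00129) and 1.72 ± 0.38 for Igfbp5 (0.00201). The receptor genes had 1.45 ± 0.19 for Insr (6.24e-05) and 1.37 ± 0.16 for Igf1r (2.41e-05). Igf1 had 0.93 ± 0.29 (0.015), under the size limit of 1. The median over all genes was 0.63, and 38.4% of them passed both thresholds in this direction. Scaled to the Sertoli cell markers, which moved that median by -2.79, the value turned negative for 8 of the 9 genes, and that of Igfbp4 was 0.34 and no longer called (limma adjusted p = 0.436). The negative values of Insr (-0.41) and Igfbp6 (-0.49) were not called either (limma adjusted p = 0.118 and 0.298).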

How the results depend on the processing

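Of 4176 values of the 9 genes under the alternatives, 3917 kept their side of the threshold (68 of them, not called, changed sign), 113 lost a call, 108 gained one and 38 reversed. Scaling to Sox9, Wt1 and Cldn11 gave 37 of the reversed values, 15 of the lost calls and 35 of those gained. The causes were not tested. Under that scaling the differences were, at D16 against 24.5 dpp, -1.02 for Igf1, -0.62 for Igf1r and -0.05 for Igfbp7. At D22 against 30.5 dpp they were -2.41 for Igf1, -1.05 for Igf1r, -0.53 for Insr, -1.48 for Igfbp2, -0.91 for Igfbp5, -0.67 for Igfbp6 and -1.37 for Igfbp7. At D28 against 36.5 dpp they were -2.25 for Igf1, -1.26 for Igf1r, -0.22 for Insr, -0.97 for Igfbp2, -0.65 for Igfbp5 and -1.04 for Igfbp7. In vivo they were 0.95 for Igf1r from 8.5 to 53.5 dpp (0.01 with median-of-ratios factors), and -1.22 for Igf1 and -0.70 for Igf1r from 8.5 to 14.5 dpp. From 14.5 to 24.5 dpp they were 0.09 for Igf1, 0.26 for Igfbp2, 0.25 for Igfbp6 and 0.04 for Igfbp7. From 24.5 to 30.5 dpp they were 0.38 for Igf1r, 1.12 for Igfbp2, 0.51 for Igfbp3, 0.17 for Igfbp6 and 1.10 for Igfbp7. At D6 against 8.5 dpp Igfbp2 was at -1. The interactions were -2.33 for Igf1, -1.20 for Igf1r, -0.41 for Insr, -1.74 for Igfbp2, -1.04 for Igfbp3, -1.39 for Igfbp5, -0.49 for Igfbp6 and -1.51 for Igfbp7.

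The number of genes called also moved. With Sertoli scaling it was 5 at D28 against 36.5 dpp in place of 8, 9 for culture against 8.5 dpp in place of 4, and 2 within the culture in place of 1. These counts hold both directions. The 8 were all higher, but of the 5 only Igfbp3 (2.5) and Igfbp4 (1.95) were higher and the others were lower. Against 8.5 dpp, with Sertoli scaling, Igfbp3 was higher and the other genes were lower. That scaling moved the median of all genes by -2.62 at D28 against 36.5 dpp and by -0.86 to -1.17 against 8.5 dpp. With median-of-ratios factors the number called was 5 in place of 8 at D22 against 30.5 dpp and for the interaction. Those factors moved the median of all genes by -0.54 and -0.67. The share of all genes called was not counted under either scaling, so these counts have nothing to be set against. Without the filter it was 2 in place of 4 against 14.5 dpp, and by adjusted p alone 2 within the culture. Leaving out 1 library gave 2 to 4 against 14.5 dpp, 3 to 6 at D16 against 24.5 dpp, 8 at D22 against 30.5 dpp, 9 from 8.5 to 53.5 dpp, 3 to 4 against 8.5 dpp, 1 to 2 within the culture (2 without D16 replicate 1, D28 replicate 2 or D28 replicate 3) and 8 to 9 for the interaction. A fit without 1 of the 14.5 dpp libraries assumes that the other varies like the remaining groups. Calls of single genes lost this way include Igfbp5 at D16 against 14.5 dpp without D16 replicate 3 (-0.82), and Igfbp7 at D16 against 24.5 dpp without 24.5 dpp replicate 2 or 3.

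With the replicate number as a block, 186 of 189 values kept their call, and Igf1 against 14.5 dpp lost it at D16, D22 and D28 (-1.06, -0.76 and -0.97, limma F adjusted p = 0.0651), leaving 3 genes called in place of 4. Same-numbered libraries correlated at -0.0402 to 0.189 in that comparison, with a median of 0.0816 beside -0.0331 for the other pairs. These weak correlations cannot decide whether the numbers pair the libraries. Depth limits the precision of low values, such as those of Insr from 30.5 dpp on, which were under 1 FPKM.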
